A study of Caenorhabditis elegans with 6 samples.

Results

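The small heat shock protein genes described here are 10 genes of Caenorhabditis elegans, taken by their sequence names from the 21951 genes of the deposited count table: hsp-12.1, hsp-12.2, hsp-12.3, hsp-12.6, hsp-17, sip-1, hsp-25, hsp-43, hsp-16.2 and hsp-16.41. The rule uses names and no measured value, and all 10 passed the filter on low counts. The data are oligo-dT-enriched RNA of whole wild-type young adults that carried eggs, from 3 control libraries and 3 libraries of animals given 100 mM ethyl carbamate for 24 h, which the design text calls biological replicates. Ethyl carbamate (urethane) is a carbamate ester found in fermented foods. Genotype, stage and tissue are the same in both groups, and all 6 sample descriptions carry the letters EV, whose meaning the labels do not give. The labels do not say what vehicle the control animals received.

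Small heat shock proteins are ATP-independent chaperones built around an alpha-crystallin domain. They bind unfolding proteins and hold them until ATP-driven chaperones such as HSP70 refold them. In the worm the HSP-16 proteins are nearly silent without stress and are switched on by the heat shock factor HSF-1, while HSP-12, HSP-17, HSP-25, HSP-43 and SIP-1 are made in unstressed animals, many of them in particular tissues or stages. HSF-1 and the FOXO factor DAF-16 of insulin signalling act together on several of these genes.

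Ethyl carbamate animals held more mRNA of 6 of the 10 genes, less of 3, and hsp-12.6 was called neither way (edgeR quasi-likelihood F test, Benjamini-Hochberg adjusted over 14705 tested genes, threshold 0.05). The short HSP-12 genes hsp-12.1, hsp-12.3 and hsp-12.2 rose 8.62-fold, 7.74-fold and 3.92-fold, the abundant sip-1 rose 1.29-fold, and the heat-inducible pair hsp-16.2 and hsp-16.41 fell 1.61-fold and 1.86-fold. Of all tested genes 40.0% were called higher, 36.3% lower and 76.3% in either direction, so the counts of 6 and 3 of 10 do not set the family apart from other genes. Of the 10 genes, 5 were higher and 3 lower in the authors' deposited table, against 24.4% of all its genes in each direction, and hsp-17 and hsp-12.6 were not called there. That share is over 21951 genes and includes the 7246 with too few reads for the edgeR test, so it is not a like background for the 10. The CPM of the groups did not overlap for 6 genes that were higher and 2 that were lower, beside 40.8%, 37.1% and, in either direction, 77.8% of tested genes. The 3 HSP-12 genes were also at least 2-fold higher, as were 23.8% of all tested genes. At least 2-fold lower were 3.34% of all tested genes and no member. The median log2 fold change of the 10 was 0.32, against 0.05 for all tested genes. In RNA of whole animals, more cells of a type and more RNA per cell cannot be told apart.

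**Figure D1:**
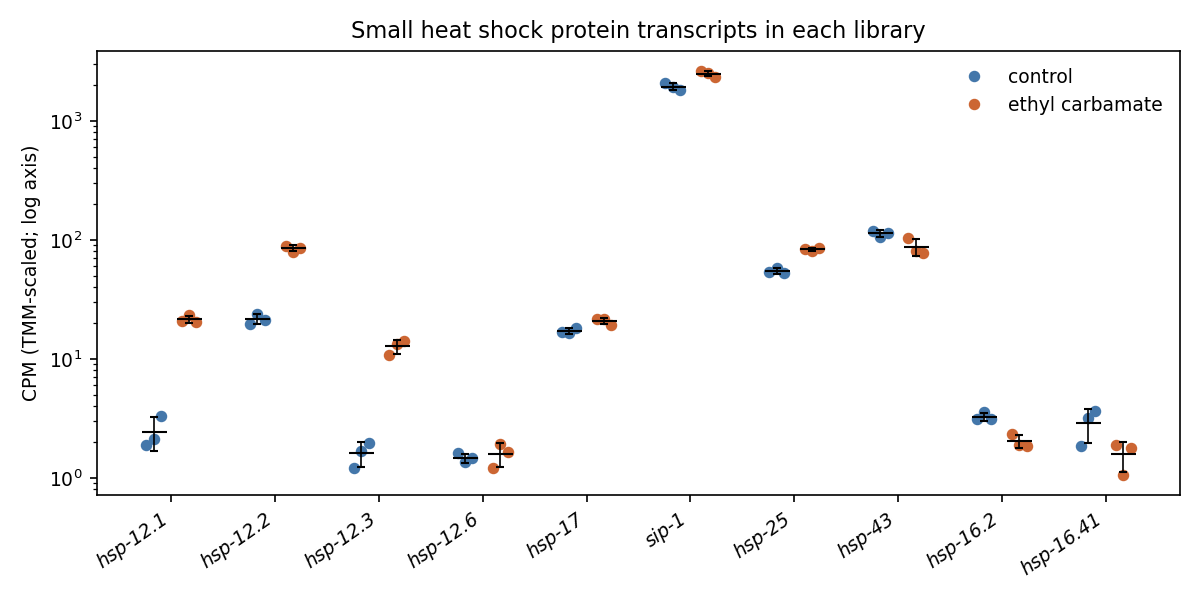
Normalised read counts (CPM, scaled by TMM, log axis) of each of the 10 genes in the 3 control and 3 ethyl carbamate libraries, with points for libraries, a bar for the mean and whiskers for the SD. hsp-12.1, hsp-12.2 and hsp-12.3 stand far above their controls, hsp-12.6 and hsp-16.41 overlap between the groups, and sip-1 is the most abundant in every library.

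The libraries held 19026133 to 22416213 reads on genes, and the 3 exposed libraries, at 20176242 to 21258740, lay within the range of the controls. Genes with a read numbered 17939 to 18506 in the controls and 19705 to 19796 in the exposed libraries. The TMM scaling factors were 0.917 to 0.952 and 1.06 to 1.08, so both separated the groups. Gene positions come from the deposited table, with a genome build not given in the sources used here, and exon counts are those of the WBcel235 annotation. All 51 marker genes listed for germline, body wall muscle, pharynx, neurons, intestine and epidermis had reads in every library. The change of a gene went with its abundance: tested genes with a log2 CPM between 0 and 2 had a median log2 change of 0.66, and those above 8 had −0.40. The part of this tilt in the results of single genes was not tested, and the median of the abundance range is given beside several of them.

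The HSP-12 proteins are the shortest of the family, with little sequence outside the alpha-crystallin domain. hsp-12.1 (T22A3.2, chromosome I, 10581588 to 10582611, minus strand, 2 exons) had 33, 44 and 71 reads in the control libraries and 442, 526 and 459 in the exposed libraries, which in CPM (reads scaled to library size by TMM) is 1.89, 2.12 and 3.33 against 20.7, 23.1 and 20.4 CPM. Every exposed library lay far above the highest control, control replicate 3. This was a log2 fold change of 3.11 ± 0.14 (SE, edgeR adjusted p = 3.69e-14), and 97.7% of tested genes had a lower value.

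hsp-12.3 (F38E11.1, chromosome IV, 9444788 to 9445324, minus strand, 2 exons) had 21, 35 and 42 control reads against 230, 305 and 315, or 1.205, 1.69 and 1.97 CPM against 10.8, 13.4 and 14.005 CPM. The groups did not overlap. On the log2 scale the difference was 2.95 ± 0.17 (SE, edgeR adjusted p = 1.84e-12). In the range of abundance that holds hsp-12.1 and hsp-12.3, a log2 CPM of 2 to 4, the median of all genes was 0.43 and the upper quartile 1.28.

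hsp-12.2 (C14B9.1, chromosome III, 8138090 to 8139631, plus strand, 3 exons) was the most abundant of the HSP-12 genes in both groups. Its libraries held 342, 495 and 453 reads in controls and 1902, 1808 and 1937 after exposure, a mean of 21.6 ± 2.13 CPM against 84.9 ± 4.93 CPM (SD, n = 3 here and below). edgeR estimated a log2 fold change of 1.97 ± 0.065 (SE, edgeR adjusted p = 1.85e-16). It shares 21 bases with phka-1 on the opposite strand, and phka-1 was lower in the exposed animals (log2 fold change −0.28). The strand setting of the counting is not given in the sources used here.

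hsp-12.6 (F38E11.2, chromosome IV, 9446385 to 9446980, minus strand, 3 exons) is a known target of DAF-16 and the only HSP-12 gene that was called in neither direction. It had 28, 28 and 31 control reads and 26, 44 and 37 exposed reads, a mean of 1.47 ± 0.13 against 1.60 ± 0.36 CPM. The groups overlapped, since exposed replicate 1 had the fewest reads and exposed replicate 2 the most. The log2 change was 0.13 ± 0.26 (SE, edgeR adjusted p = 0.651). On quantile-normalized FPKM the value was −0.50 and was called lower (limma adjusted p = 0.0260).

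hsp-12.3 and hsp-12.6 lie on the same strand 1060 bases apart, with no protein-coding gene between them in the deposited table. Within a library their read counts can be set against each other without any scaling. hsp-12.3 had 0.75 to 1.35 reads per read of hsp-12.6 in the controls and 6.93 to 8.85 in the exposed libraries. The ratio separated the groups completely, by 2.89 on the log2 scale. The exact two-sided permutation p was 0.1, the smallest that 3 against 3 libraries can give. The genes on either side of this pair were also called higher, with a log2 fold change of 0.69 for F38E11.9 and 2.93 for cutl-17, a gene of the cuticulin-like family.

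**Figure D2:**
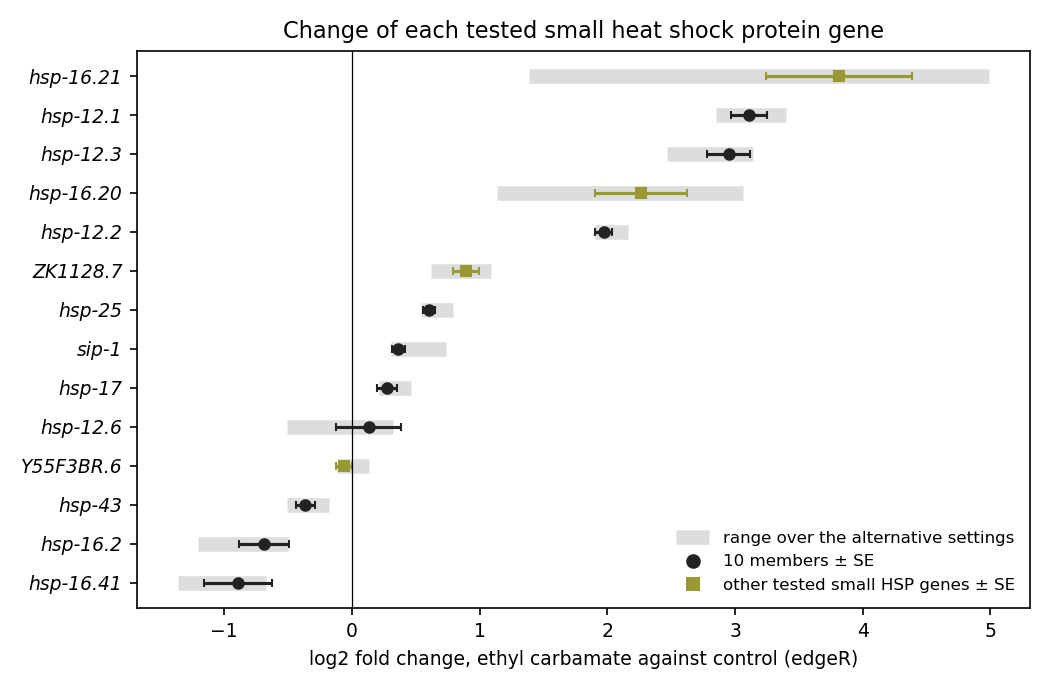
Log2 fold change (ethyl carbamate against control, edgeR) of the 14 small heat shock protein genes that could be tested, with the standard error as whiskers and the range over the alternative settings as a grey band. Black circles are the 10 genes described here and olive squares other family members. The bands of hsp-12.6 and Y55F3BR.6 cross 0.

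The HSP-16 genes encode the cytosolic small heat shock proteins that are barely made at rest and strongly induced by heat; an hsp-16.2 reporter is a standard readout of that response. hsp-16.2 (Y46H3A.3, chromosome V, 1804334 to 1804971, minus strand) had 54, 74 and 67 control reads and 50, 43 and 42 exposed reads, which is 3.098, 3.57 and 3.14 CPM against 2.34, 1.89 and 1.87 CPM. All 3 exposed libraries were below all 3 controls. The fitted log2 change was −0.69 ± 0.20 (SE, edgeR adjusted p = 0.00381). Over the alternative settings it ran from −1.20, under quantile normalization, to −0.50, and was called lower in each.

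hsp-16.41 (Y46H3A.2, chromosome V, 1805233 to 1805875, plus strand) lies 261 bases from hsp-16.2 and is read in the opposite direction. It had 32, 66 and 77 control reads and 40, 24 and 40 exposed reads. The groups overlapped, because control replicate 1, at 1.84 CPM, lay just under exposed replicate 1, at 1.87 CPM. For this gene the log2 change was −0.89 ± 0.27 (SE, edgeR adjusted p = 0.00473). It missed the threshold in limma on log2(FPKM + 0.5) with no filter on low values (−0.80, limma adjusted p = 0.0536).

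Both genes fell in a range of abundance, a log2 CPM of 0 to 2, where the median of all genes was 0.66 and the lower quartile −0.088. Only 7.7% of tested genes had a log2 fold change below that of hsp-16.2, and 4.2% below that of hsp-16.41. The reads of hsp-16.2 per read of hsp-16.41 were 0.87 to 1.69 in the controls and 1.05 to 1.79 in the exposed libraries. These ranges overlapped and differed by 0.17 on the log2 scale, less than the SD within either group (exact two-sided permutation p = 0.7, smallest possible 0.1).

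The other 4 classic HSP-16 genes lie together on chromosome V in close paralogous copies, and had too few reads to test. hsp-16.1 (T27E4.8) had 4, 3 and 3 control reads and 1 in each exposed library, a ratio of exposed to control of 0.268 with a 95% exact binomial interval of 0.0474 to 1.04. hsp-16.11 (T27E4.2) had 14 reads against 10, hsp-16.48 (T27E4.3) 10 against 11, and hsp-16.49 (T27E4.9) 7 against 18. The intervals of these 3 ratios, 0.254 to 1.55, 0.379 to 2.58 and 0.916 to 6.51, all include 1 and cover counting error only. Changes within these intervals were not detectable at this depth.

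These 4 genes, hsp-16.2 and hsp-16.41 together had 97, 153 and 161 control reads and 100, 84 and 97 exposed reads, a summed level of 6.83 ± 1.10 against 4.23 ± 0.50 CPM. The sum was lower in every exposed library than in any control, and the difference lay in hsp-16.2 and hsp-16.41, since the other 4 had 41 control reads and 42 exposed reads (0.685 ± 0.097 against 0.628 ± 0.14 CPM). With hsp-16.20 and hsp-16.21, which were higher and are described further on, the 8 genes summed to 7.30 ± 1.32 CPM in the controls and 7.28 ± 0.48 CPM after exposure, and the groups overlapped. How the authors counted reads that match several copies is not given in the sources used here, so the values of single copies are uncertain. With hsp-16.1, hsp-16.11 and hsp-16.2 summed to 1 feature, the log2 fold change was −0.72 (edgeR adjusted p = 0.00178), and with hsp-16.41, hsp-16.48 and hsp-16.49 summed it was −0.67 (edgeR adjusted p = 0.0157).

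sip-1 (F43D9.4, chromosome III, 10506106 to 10506801, minus strand, 2 exons) encodes a small heat shock protein of oocytes and embryos that works best at acidic pH. It had 36247, 39801 and 38935 reads in the controls and 55854, 57231 and 53038 in the exposed libraries, or 2079, 1918 and 1826 CPM against 2617, 2516 and 2358 CPM. The groups did not overlap. On the log2 scale sip-1 changed by 0.36 ± 0.051 (SE, edgeR adjusted p = 1.64e-06). Among genes with a log2 CPM above 8 the median was −0.40 and the upper quartile −0.13, and sip-1 lay above both. Over the alternative settings its value ran from 0.31 to 0.74, the latter under quantile normalization, and was called in each. By mean FPKM it was the gene of rank 11 of 21951 in the controls and of rank 2 in the exposed animals.

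The markers of the germline, where oocytes form, moved against sip-1. All 10 were called lower (median log2 change −0.52), beside 36.3% of all tested genes. All 10 had a log2 CPM above 8, where all genes had a median of −0.40 and quartiles of −0.66 and −0.13, and 3 of the 10 lay below the lower quartile. Their summed level was 8741 to 9335 CPM in the controls and 5878 to 5991 CPM in the exposed libraries. The largest falls were in cgh-1, an RNA helicase of germ cells, at −0.85, pgl-3, a P granule gene, at −0.85, and gld-1, a translational repressor, at −0.80. Their part in the sip-1 result was not tested. The protein-coding genes next to sip-1 on either side, urm-1 at 9 bases and sly-1 at 313 bases, had log2 fold changes of −0.73 and −0.43, and both were called lower.

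**Figure D3:**
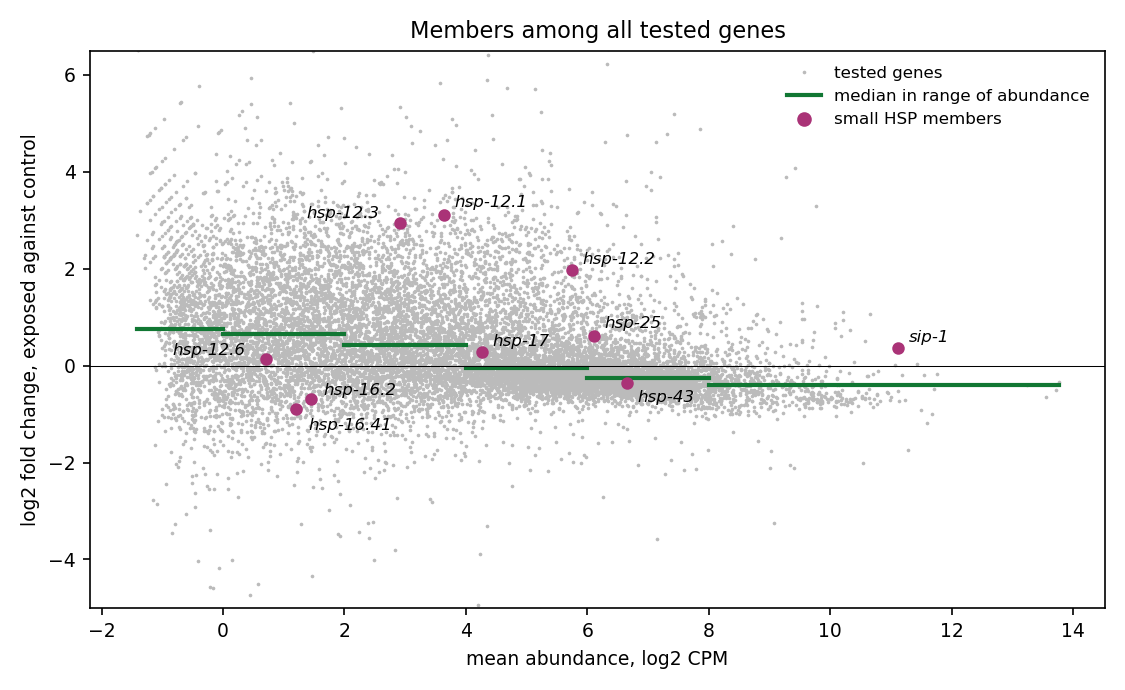
Log2 fold change against mean abundance (log2 CPM) for all tested genes (grey), with the median in each range of abundance as a green line and the 10 genes in purple. 31 genes beyond −5 or 6.5 are not drawn. sip-1 and hsp-25 lie above, and hsp-16.2 and hsp-16.41 below, the green line of their range.

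hsp-25 (C09B8.6, chromosome X, 6034507 to 6039236, minus strand) encodes a protein of the dense bodies and M-lines of body wall muscle, the structures that anchor its filaments. It had 935, 1203 and 1123 control reads against 1793, 1821 and 1919, a mean of 54.8 ± 2.82 against 83.1 ± 2.74 CPM. The groups stood well apart, with the highest control at 58.0 and the lowest exposed library at 80.1 CPM. The estimate on the log2 scale was 0.60 ± 0.048 (SE, edgeR adjusted p = 4.50e-10), and the median of genes of like abundance was −0.25. Body wall muscle markers numbered 10, of which 8 rose and 1 fell (median 0.87), beside 40.0% and 36.3% of all tested genes. The summed level of the markers went from 2882 to 3051 CPM in the controls to 4083 to 4312 CPM. The largest changes were in the myosin gene myo-3, at 2.22, dim-1 at 1.23 and unc-97 at 1.07. The part of muscle in the hsp-25 result was not tested. hsp-25 shares 4 bases with ipp-5 on the opposite strand, which was also higher (0.48).

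hsp-17 (F52E1.7, chromosome V, 8384810 to 8385914, minus strand, 3 exons) had 291, 345 and 389 control reads and 460, 490 and 435 exposed reads, a mean of 17.2 ± 0.91 against 20.8 ± 1.28 CPM. The groups were close but separate, with 18.2 CPM as the highest control and 19.3 CPM as the lowest exposed library. The small rise was, on the log2 scale, 0.27 ± 0.079 (SE, edgeR adjusted p = 0.00371). DESeq2 gave 0.22 and did not call it (DESeq2 adjusted p = 0.0671). The authors' deposited values match this DESeq2 fit, so they are not a separate result. It shares 58 bases with F52E1.14 on the opposite strand, a gene that was itself higher (log2 fold change 0.34), and without a stated strand setting, reads of the shared bases cannot be told apart.

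hsp-43 (C14F11.5, chromosome X, 6233215 to 6235541, minus strand) was the only one of the 10 outside the HSP-16 genes that was called lower. It had 2088, 2183 and 2449 control reads and 2227, 1844 and 1759 exposed reads, or 120, 105 and 115 CPM against 104.4, 81.1 and 78.2 CPM. Exposed replicate 1 lay just under the lowest control, and the other exposed libraries well below it. The fall was, on the log2 scale, −0.37 ± 0.074 (SE, edgeR adjusted p = 0.000151), within the quartiles of −0.42 and −0.031 for genes of like abundance. On quantile-normalized FPKM the value was −0.19 and was not called (limma adjusted p = 0.162).

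Levels of different genes were compared per length, as FPKM (fragments per kilobase and library size). In the controls sip-1 stood at 3099.6 ± 230 FPKM and hsp-43 at 83.6 ± 5.99, followed by hsp-12.2 at 43.6 ± 4.06 and hsp-25 at 41.2 ± 2.04, whose ranges overlapped, and hsp-17 at 30.1 ± 1.49. hsp-16.2, hsp-12.1, hsp-16.41, hsp-12.6 and hsp-12.3 followed between 5.64 ± 0.42 and 3.41 ± 0.79 FPKM, each overlapping the next. After ethyl carbamate hsp-12.2, at 166 ± 10.2 FPKM, stood next to sip-1, at 3843 ± 211. hsp-43 at 62.5 ± 10.4 and hsp-25 at 60.3 ± 2.12 FPKM overlapped. Then came hsp-12.1 at 47.5 ± 3.18, hsp-17 at 35.2 ± 2.19 and hsp-12.3 at 25.8 ± 3.40 FPKM, with separate ranges. hsp-12.6 at 4.32 ± 0.96, hsp-16.2 at 3.38 ± 0.46 and hsp-16.41 at 2.64 ± 0.76 FPKM came last and overlapped in turn.

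sip-1 made up 93.3 ± 0.54% of the summed FPKM of the 10 genes in the controls and 90.4 ± 0.36% in the exposed animals. The sum over the 10 was 3322 ± 227 FPKM in the controls and 4250.3 ± 222 FPKM after exposure. Without sip-1 it was 222 ± 3.12 against 407 ± 16.12 FPKM, 1.83 times as high. The 4 HSP-12 genes summed to 56.8 ± 4.59 FPKM in the controls and 243 ± 4.58 FPKM after exposure. Among the 9 genes other than sip-1, hsp-43 held the largest share in the controls, at 37.6 ± 2.88%, and 15.3 ± 1.96% after exposure. hsp-12.2 held 19.6 ± 1.82% in the controls and the largest share, 40.6 ± 1.33%, in the exposed libraries. These sums and shares are descriptions, with no test.

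**Figure D4:**
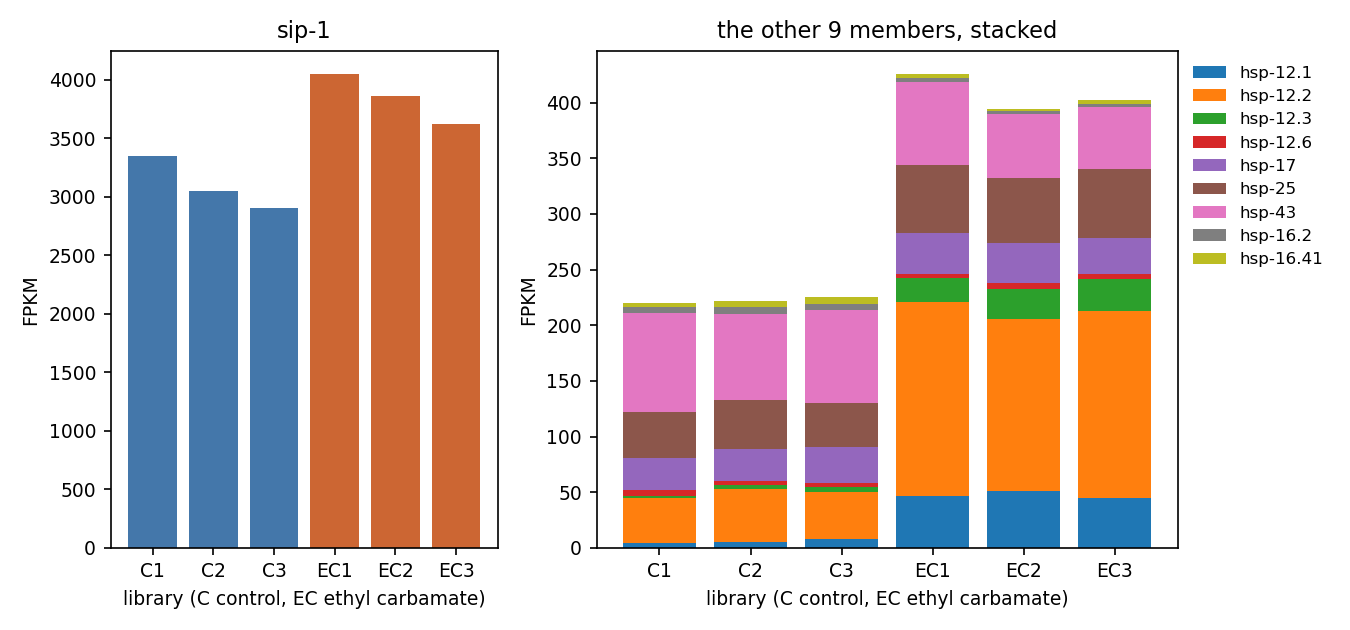
FPKM of sip-1 (left) and stacked FPKM of the other 9 genes (right) in each library, C for control and EC for ethyl carbamate, both axes linear and from 0. The stack stands near 222 FPKM in the controls and 407 FPKM after exposure, and the orange part, hsp-12.2, makes up most of the difference.

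The family has 8 further genes on the list used here, of which 4 could be tested. hsp-16.20 (F08H9.3) and hsp-16.21 (F08H9.4), which lie 819 bases apart on chromosome V away from the classic HSP-16 genes, were called higher. hsp-16.20 had 5, 4 and 16 control reads against 47, 46 and 42, a log2 change of 2.26 ± 0.36 (SE, edgeR adjusted p = 9.81e-06). The pooled ratio was 4.83 with a 95% exact binomial interval of 3.13 to 7.72. Of its control reads most lay in control replicate 3, without which the log2 fold change was 3.06.

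hsp-16.21 had 0, 1 and 3 control reads against 20, 27 and 21, a pooled ratio of 15.2 with an interval of 5.67 to 57.4 (edgeR adjusted p = 4.13e-06). Its fitted log2 fold change of 3.81 was 4.99 without control replicate 3. On quantile-normalized log2(FPKM + 0.5) the changes of hsp-16.20 and hsp-16.21 were 1.13 and 1.39, and on log2(FPKM + 0.5) without quantile normalization 1.80 and 2.12, all called; the cause of the smaller values was not tested. Both genes were higher, where hsp-16.2 and hsp-16.41 were lower, but these pairs do not make a like comparison. hsp-16.20 and hsp-16.21 passed the filter on low counts only through the exposed libraries. A gene so low in the controls could be tested only if it was higher after exposure. ZK1128.7, another gene with an alpha-crystallin domain, rose from 7.83 ± 0.69 to 14.5 ± 0.67 CPM (log2 change 0.90 ± 0.10 SE, edgeR adjusted p = 1.03e-07). Y55F3BR.6 had 37.9 ± 0.054 CPM in the controls and 36.4 ± 2.74 CPM after exposure (log2 fold change −0.06, edgeR adjusted p = 0.393). The median of the 4 that passed the filter was 1.58, against 0.05 for all tested genes. Shares of 40.0% and 36.3% of all tested genes were called higher and lower. With no filter on low counts all 8 were fitted, and 3 were called higher and 0 lower. Their median was then 0.43, against 0.21 for all genes in that setting.

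Of 10 genes that control the heat shock and FOXO programmes, 4 were called higher and 3 lower (median log2 change 0.02). Among all tested genes the shares were 40.0% and 36.3%. The split of the 10 rests on the scaling, with 7 higher and none lower when libraries were scaled by size only. hsf-1 (Y53C10A.12), which encodes the heat shock factor, went from 135 ± 6.30 to 120 ± 1.41 CPM, a log2 fold change of −0.18 that turned to 0.02 and was not called with scaling by size only, and was not called under quantile normalization. daf-16 (R13H8.1) rose from 139 ± 1.47 to 175 ± 0.38 CPM (log2 fold change 0.33, edgeR adjusted p = 5.05e-08). The largest change was in jmjd-3.1 (F18E9.5), the H3K27 demethylase that keeps heat shock genes inducible in young animals. Its level rose 4.74-fold, from 18.8 ± 1.68 to 89.5 ± 1.55 CPM (edgeR adjusted p = 4.91e-18). hsf-2 (Y53C10A.3) had a log2 fold change of 0.71 (edgeR adjusted p = 0.0109), which was lost under quantile normalization (−0.035), under DESeq2 and without ethyl carbamate replicate 3.

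The ATP-driven cytosolic chaperones that work with small heat shock proteins were mostly lower. Of 15 such genes and their cochaperones, 10 were called lower and 2 higher (median log2 change −0.55), beside 36.3% and 40.0% of all tested genes. Of the 10, 6 had a log2 CPM above 8 and 3 one of 6 to 8, where all genes had medians of −0.40 and −0.25. Below the lower quartile of their range, −0.66 and −0.42, lay 3 of the 6 and all of the 3. The part of abundance in these falls was not tested. The constitutive HSP70 gene hsp-1 (F26D10.3) fell 1.89-fold, from 3767 ± 151 to 1996 ± 33.9 CPM. Falls of 2.06-fold in hsp-110, its nucleotide exchange factor, 2.01-fold in hsp-90 and 2.00-fold in sti-1, the adaptor between HSP70 and HSP90, were the largest of the list. The inducible HSP70 genes hsp-70, F44E5.4 and F44E5.5, which report heat shock as hsp-16.2 does, were not called, at log2 fold changes of −0.23, 0.14 and 0.13. Under quantile normalization hsp-70 was called lower (−0.83), and F44E5.4 and F44E5.5 are close copies whose single values are uncertain. The genes called higher were unc-23, which encodes a cochaperone of muscle attachment, at 0.36, and unc-45, a myosin chaperone, at 0.12. Under quantile normalization unc-23 was at −0.013, and unc-45 was not called by DESeq2.

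Of 11 DAF-16 targets other than small heat shock genes, 9 rose and 2 fell, beside 40.0% and 36.3% of all tested genes. Their median log2 change was 1.05, against 0.05 for all tested genes. The largest were the metallothionein gene mtl-1 at 3.63, the transhydrogenase gene nnt-1 at 2.13 and the lysozyme gene lys-7 at 1.51, on the log2 scale. On the same scale hsp-12.6, named above as a known target of DAF-16, stood at 0.13. The part of DAF-16 in these results was not tested.

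**Figure D5:**
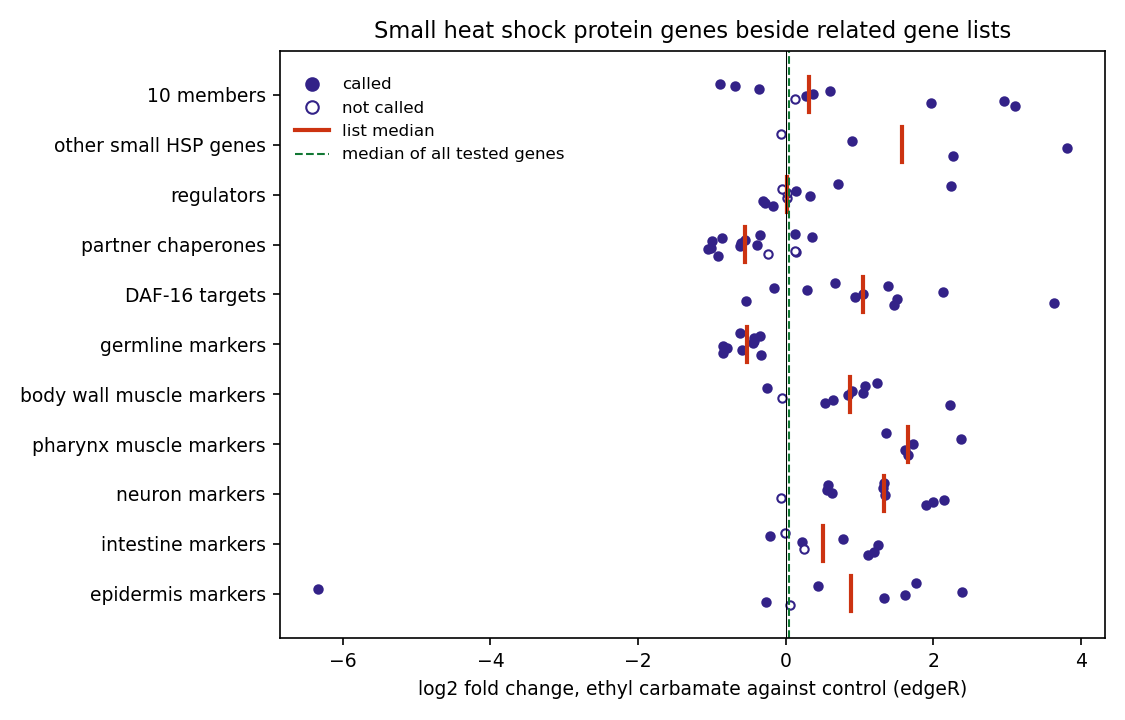
Log2 fold change (ethyl carbamate against control, edgeR) of the tested genes of each list, filled where called and open where not, with the list median in red and the median of all tested genes as a green dashed line. Partner chaperones and germline markers lie mostly left of 0, while the 10 genes spread from −0.89 to 3.11.

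Markers of the other tissues moved as well, beside 40.0% of all tested genes called higher and 36.3% lower. Pharynx muscle markers were called higher in 5 of 5 cases (median 1.66), neuron markers in 9 of 10 (1.33), epidermis markers in 5 of 8 with 2 lower (0.89) and intestine markers in 5 of 8 with 1 lower (0.51). Their summed levels in control and exposed libraries were 153 to 184 and 538 to 604 CPM for pharynx, 485 to 507 and 703 to 749 CPM for neurons, 292 to 309 and 389 to 394 CPM for epidermis, and 2163 to 2321 and 2753 to 3012 CPM for intestine. The largest changes in these lists were in the troponin gene tnt-4 (2.38) for pharynx, the synaptic GTPase gene rab-3 (2.14) for neurons and the intermediate filament gene ifb-2 (1.26) for intestine. None of these markers was at 0 in any library, and the part of tissue makeup in the results of the HSP-12 genes was not tested. The largest log2 fold change among the 51 markers was 2.39, in the cuticle collagen gene dpy-7, beside 3.11 and 2.95 in hsp-12.1 and hsp-12.3. Another cuticle collagen gene, rol-6, had the lowest, −6.34.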

How the data were processed

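RNA-seq of 3 control and 3 ethyl carbamate libraries was analysed from the deposited tables. Per the submitters' processing notes the tools were DESeq2 1.20.0, StringTie 1.3.3, HISAT2 2.0.5 and featureCounts 1.5.0-p3, and the design text names DEGSeq. DESeq2 rerun on the deposited counts matched the deposited log2 fold changes within 0.001 in all 18968 genes compared. Strandedness, the handling of multi-mapping reads and the build are not given in the sources used here. Tables deposited by the authors hold raw counts per gene, counts divided by size factors (a normalized signal), FPKM, and log2 fold changes with p-values. Levels were compared between genes as FPKM, which divides by length, and between libraries as CPM, which divides by depth.

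Counts of 14705 genes that passed edgeR's filterByExpr were tested with edgeR 4.0.16 (TMM scaling, quasi-likelihood F test, no covariate) in R 4.3.3, with Benjamini-Hochberg adjustment and a threshold of 0.05. The other 7246 genes had too few reads. Alternatives used DESeq2 1.42.0, other scalings and filters, and limma 3.58.1 on log2(FPKM + 0.5). Named genes were all small heat shock genes, up to 3 called genes of each other list with the largest change, and hsf-1, daf-16, hsp-70 and hsp-1. Genes beside or overlapping the members, F44E5.4, F44E5.5, unc-23 and unc-45 fall outside that rule and were chosen after their values were seen. In counts simulated for this comparison over 14705 genes, edgeR recovered 59.6% of 47 genes changed 1.25-fold and 87.2% of 47 changed 2-fold. The simulation gave 156 calls, 9 of them false, against 11220 calls in the data. With so few changed genes, its rates need not hold for the data. Intervals are exact binomial and cover counting error only. The members and lists were chosen with earlier results of these data known. scl-1, on the list of DAF-16 targets, was not matched. Promoter motifs and protein sequences were not analysed here.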

Additional observations from a re-analysis of the deposited data

How the results depend on the processing

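In every alternative run the number of the 10 genes called higher was 6, except 5 with DESeq2, and the number called lower was 3, except 2 with limma without a filter. hsp-12.6 reversed to −0.50 under quantile normalization. hsp-17 missed the threshold with DESeq2 (0.22), hsp-43 under quantile normalization (−0.19) and hsp-16.41 with limma without a filter (−0.80); the causes were not tested. Scaling by library size only moved the median of all genes by 0.19 and the number of all genes called lower to 3409. In that setting 7 regulators were higher and 0 lower, and the lower calls were 1 DAF-16 target, 0 body wall muscle, 0 intestine and 1 epidermis marker. Regulators called higher numbered 2 with DESeq2 and at a threshold of 0.01, and 2 to 4 with each library left out (2 without ethyl carbamate replicate 3). Partner chaperones called higher numbered 1 with DESeq2, limma and median-ratio scaling. Body wall muscle markers called lower numbered 2 with DESeq2 and limma (not quantile). Neuron markers called lower numbered 1 with DESeq2, limma (not quantile) and median-ratio scaling, and 0 to 1 with each library left out (1 without control replicate 3). Quantile normalization gave 1 DAF-16 target and 2 intestine markers lower, and limma without a filter called 1 other small heat shock gene lower.

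With each library left out, 5699 to 5823 genes were higher and 5143 to 5241 lower, and the sip-1 share, an alternative chosen after seeing the data, was 93.0 to 93.5% and 90.3 to 90.6%. Same-numbered libraries did not deviate together over all genes (r of −0.0060, −0.0042 and −0.012), so no pairing by number was seen. These values do not settle whether the numbers stand for a shared batch. A fit with the replicate number as a block called 5851 genes higher and 5345 lower, and 6 and 3 of the 10. Groups of 3 libraries and few reads for the HSP-16 genes limit what could be detected.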
